A study of Mus musculus with 6 samples.

Results

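The genes described here are 8 markers of islet cells other than the β-cell or of dedifferentiated β-cells. They were measured in MIN6, a mouse insulinoma line used as a β-cell model. They are Gcg, Ttr, Gc and Irx2, which mark α-cells, Sst of δ-cells, Ppy and Pyy, hormones of pancreatic polypeptide cells and of gut endocrine cells, and Aldh1a3, a marker of dedifferentiated β-cells. They are 8 of the 22298 genes in the table and were found there by symbol. They were chosen by name, with the epinephrine-against-control values of these same samples already known, so their levels and differences are given below as a description, with no test. The 3 control samples were MIN6 cells without added epinephrine. The 3 chronic epinephrine samples were MIN6 cells of the chronic exposure, which the paper describes as 3 days in 100 nM epinephrine and then 2 days without it. The day of RNA collection for sequencing is not given in the sources used here, so whether these samples had passed through the days without epinephrine is not known. Each sample held 15017065 to 18127171 expected counts. Control 1 stood apart from the other samples, and controls 2 and 3 held hepatocyte transcripts that the others nearly lacked, so values without control 1 or control 3 are given where they bear on a gene. All samples came from 1 cell line. The study's methods call the samples of each group independent without saying how they were kept apart, so the p-values of the other genes named below measure the spread between these samples. In bulk RNA, more cells that express a gene and more RNA per cell cannot be told apart.

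Islet cells share a developmental origin, and each type is set by its own transcription factors and known by its main hormone. Glucagon, the α-cell hormone, raises blood glucose and opposes insulin, while somatostatin from δ-cells restrains both. Epinephrine acts on β-cells mainly through α2A-adrenergic receptors, which lower cAMP and insulin release. β-cells that lose their identity under metabolic stress can switch on genes of other islet cells or of progenitors, and Aldh1a3 is a widely used sign of that state.

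Of the 8 genes, 3 were expressed well above the counting floor, and all 3 were higher in the chronic epinephrine group. Gcg was 2.03-fold higher, Gc 1.63-fold higher and Ttr 1.52-fold higher. Irx2 and Sst were near 1 normalised CPM (counts scaled to the TMM-normalised library total) in both groups. Ppy, Pyy and Aldh1a3 reached at most 4 counts in any sample. Thus transcripts of proglucagon and of both carrier proteins were present, while those of the α-cell transcription factor Irx2 were barely detected.

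**Figure D1:**
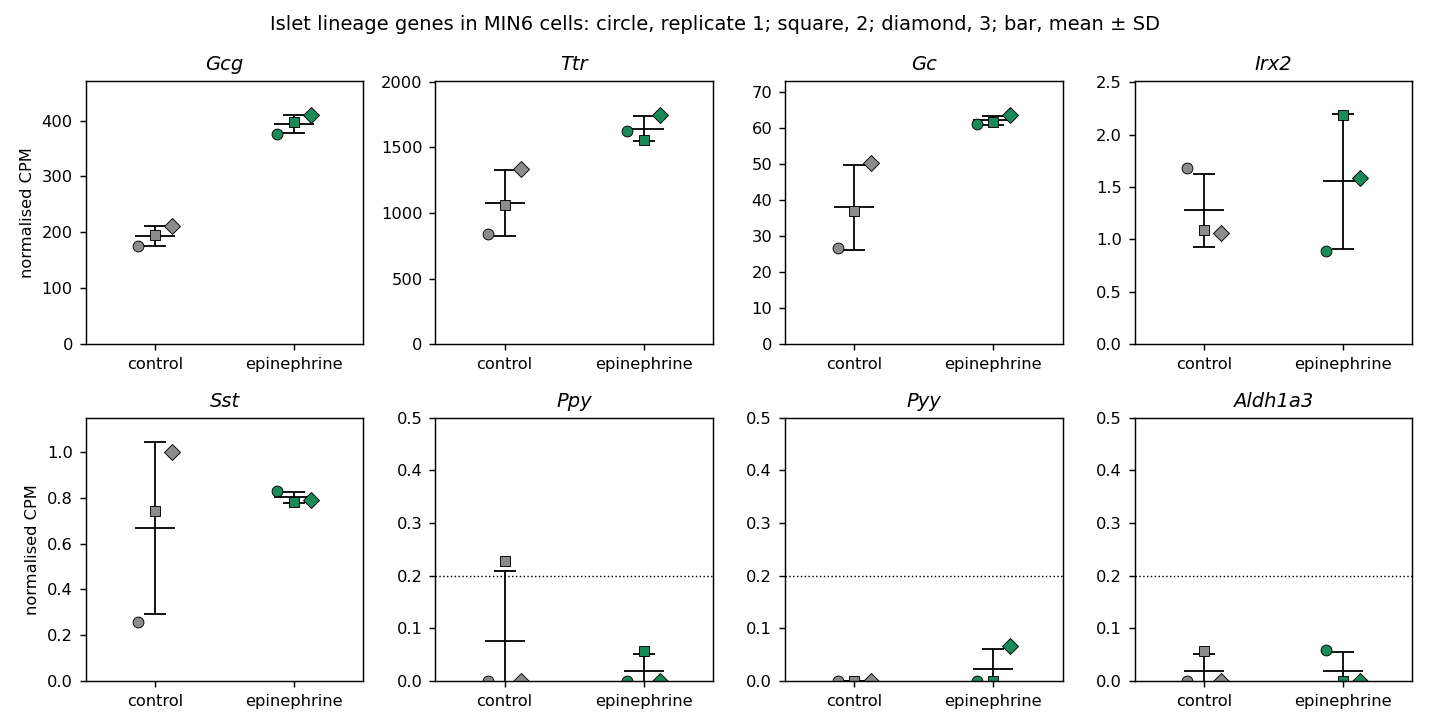
Normalised CPM of each of the 8 genes (one panel a gene, each with its own linear axis from 0) in control (grey) and chronic epinephrine (green) samples, with the mean ± SD of 3 samples and, in the last 3 panels, a dotted line at 0.2 CPM, the level of 3 counts in the sample of lowest total. Gcg, Ttr and Gc lie higher in all 3 epinephrine samples than in any control, whereas Irx2 and Sst overlap and the last 3 genes lie at or close to 0.

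The sequences before the start sites of Gcg and Gc are shown because these genes were higher together, and a short stretch before Sst is shown for its cAMP response element, the site through which cAMP acts on that gene. All are from RefSeq (GRCm38.p6), 5′ to 3′ on the gene's strand, which is the minus strand for each. The Gcg and Gc stretches run from 150 bases before the start to the last base before it, at chr2:62483654-62483803 and chr5:89457899-89458048, and the Sst stretch is chr16:23890875-23890904. The RefSeq start of Sst, from which its bases are counted, lies downstream of the GENCODE start, so this stretch lies within the gene as GENCODE draws it. Capitals mark TATAAA in Gcg, once on the gene's strand and once on the other strand, where it reads TTTATA, and TGACGTCA in Sst.
Gcg: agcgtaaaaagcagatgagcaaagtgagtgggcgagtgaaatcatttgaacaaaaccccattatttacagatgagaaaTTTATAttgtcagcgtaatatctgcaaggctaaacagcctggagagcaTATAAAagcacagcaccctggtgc
Gc: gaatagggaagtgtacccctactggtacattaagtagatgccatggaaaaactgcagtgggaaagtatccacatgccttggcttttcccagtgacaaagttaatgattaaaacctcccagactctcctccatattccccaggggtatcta
Sst: cgcctccttggcTGACGTCAgagagagagt

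Of the 8 genes, 6 had a promoter in the table used, namely all but Ttr and Aldh1a3. In the 250 bases before each start, 5 sets of letters were searched on both strands, none of which contains another. TATAAA (the TATA box) stood 24 to 19 bases before the start of Gcg and 31 to 26 bases before that of Ppy, and 12.4% of the 32851 mouse promoters hold it. CCAAT, held by 33.8%, was found in Gc, Irx2 and Pyy. TGACGTCA, held by 1.55%, was found in Sst alone of the 6, at 48 to 41 bases before the start. TGATGCAA (a composite element of ATF4 and C/EBP factors, held by 0.791%) and TGTTTAC (a site of FOXA factors, held by 3.17%) were found in none of these windows. None of the 5 sets was found in both Gcg and Gc.

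Gcg encodes proglucagon and lies on chromosome 2, 62474530 to 62483650, minus strand (GRCm38, GENCODE release 21, as for all positions below). Its level was 175, 195 and 212 CPM in controls 1, 2 and 3 and 377, 396 and 409 CPM in epinephrine samples 1, 2 and 3. The groups did not overlap, and the lowest epinephrine sample was 165 CPM above the highest control. The means were 194 ± 18.2 CPM (SD, n = 3) in controls and 394 ± 16.4 CPM (SD, n = 3) after epinephrine, which is a log2 fold change of 1.02 with a standard error (SE) of 0.10. In raw expected counts these are 2706, 3412 and 3381 against 6353, 7076 and 6190, so counting error is small beside the spread between samples.

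Ttr encodes transthyretin, which carries thyroxine and, bound to retinol-binding protein, vitamin A. It is abundant in α-cells and also in hepatocytes and the choroid plexus. The gene lies on chromosome 18, 20665280 to 20674321, plus strand. It was measured at 837, 1058 and 1334 CPM in controls 1, 2 and 3 and at 1622, 1556 and 1744 CPM in the epinephrine samples. All epinephrine samples were above all controls, but the controls were spread widely, with means of 1076 ± 249 CPM (SD, n = 3) and 1641 ± 95.1 CPM (SD, n = 3), and the difference on the log2 scale was 0.61 (SE 0.16).

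Gc encodes the vitamin D-binding protein of blood plasma, made by hepatocytes and by α-cells. It lies on chromosome 5, 89417522 to 89457898, minus strand. Its level was 26.8, 37.0 and 50.3 CPM in controls 1, 2 and 3 and 61.1, 61.9 and 63.6 CPM in the epinephrine samples. The epinephrine samples were nearly equal to each other, at 62.2 ± 1.29 CPM (SD, n = 3), while the controls spread over a mean of 38.0 ± 11.8 CPM (SD, n = 3) without reaching them, which gave a log2 fold change of 0.71 (SE 0.19).

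Of the 5 genes that passed the filter on low counts, Gcg, Ttr and Gc were the 3 whose groups did not overlap with epinephrine higher. Among all 12747 genes tested, 14.3% had this property. Because this contrast was known when the genes were chosen, nothing is read from that count.

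Irx2 encodes a homeodomain factor of the Iroquois family that is expressed in α-cells and not in β-cells. It lies on chromosome 13, 72628820 to 72634198, plus strand. The samples held 26, 19 and 17 counts in controls and 15, 39 and 24 counts after epinephrine, or 1.68, 1.09 and 1.06 CPM against 0.890, 2.19 and 1.59 CPM. The groups overlapped, since epinephrine sample 1 was the lowest of all 6 and epinephrine sample 2 the highest, and the log2 fold change was 0.29 (SE 0.37). In FPKM (the authors' measure of fragments per length of transcript and library total) the values were 0.800, 0.810 and 1.11 in controls and 0.340, 1.22 and 0.600 after epinephrine, so that the order of the group means was the opposite of that in counts. The transcript length implied by the ratio of count to FPKM moved between 954 and 2622 bases across samples for Irx2, a gene with 5 annotated transcripts, whereas it stayed at 1186 bases in every sample for Ttr and at 1801 bases for Gc. Of the 3324 stretches of 50 bases in the Irx2 transcripts, 0.481% also occur in Irx5, a near relative, so a few reads could be split between them.

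Sst encodes somatostatin and lies on chromosome 16, 23889573 to 23890958, minus strand. It had 4, 13 and 16 counts in controls and 14, 14 and 12 counts after epinephrine. The normalised levels were 0.259, 0.743 and 1.00 CPM against 0.830, 0.784 and 0.793 CPM. The epinephrine samples lay within the range of the controls, where control 1 was low, and the log2 fold change was 0.25 (SE 0.43). Summed over each group, Sst had 33 counts in controls, or 0.680 CPM of the summed totals (95% exact Poisson interval 0.468 to 0.955), and 40 counts after epinephrine, or 0.795 CPM (0.568 to 1.08). All such intervals cover counting error only.

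Ppy and Pyy, which encode pancreatic polypeptide and peptide YY, lie side by side on chromosome 11, minus strand, at 102099930 to 102101319 and 102106676 to 102107832. Only 5356 bases separate them, with no other annotated gene between. Ppy had 0, 4 and 0 counts in controls and 0, 1 and 0 counts after epinephrine. Pyy had no counts in any control and 0, 0 and 1 counts after epinephrine. Neither hormone could be told from absence in most samples. For Ppy, 4 counts over the control group correspond to 0.0824 CPM (0.0225 to 0.211) and 1 count over the epinephrine group to 0.0199 CPM (0.000503 to 0.111). For Pyy, 0 counts over the 3 controls allow a level of up to 0.0618 CPM, the level of 3 counts, and the exact Poisson interval reaches 0.076 CPM.

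Aldh1a3 encodes an enzyme that makes retinoic acid from retinaldehyde and lies on chromosome 7, 66390890 to 66427517, minus strand. It had 0, 1 and 0 counts in controls and 1, 0 and 0 counts after epinephrine. It was therefore at or under the floor of 3 counts, 0.165 to 0.200 CPM, in every sample. A difference between the groups was not detectable at this depth. No annotated gene overlaps any of the 8 genes, and apart from Irx2 and Aldh1a3, with 1.15% of its stretches of 50 bases shared, none shares such a stretch with another gene.

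Levels of different genes were compared in FPKM, which is scaled to transcript length. In controls the order of the means was Ttr at 913 ± 197 FPKM (SD, n = 3), Gcg at 189 ± 14.7 FPKM and Gc at 21.2 FPKM, then Sst at 0.927 FPKM and Irx2 at 0.907 FPKM. Each of the first 3 lay above the next in every sample, while Sst and Irx2 overlapped. After epinephrine the order was the same, with Ttr at 1370 ± 83.2 FPKM (SD, n = 3), Gcg at 376 ± 13.6 FPKM, Gc at 34.2 FPKM, Sst at 1.10 FPKM and Irx2 at 0.720 FPKM. Ppy, Pyy and Aldh1a3 followed below Irx2 in both groups and overlapped each other. Gcg ranked between 260 and 273 among all genes by FPKM in the controls and between 135 and 145 after epinephrine. Ttr ranked between 37 and 52 in the controls and between 28 and 30 after epinephrine, so this β-cell line expressed it highly in both groups.

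Against the β-cell hormone, Gcg FPKM was 6.38 to 7.40% of Ins1 FPKM in controls and 19.4 to 20.5% after epinephrine. Both parts of this ratio differed, since Ins1, the rodent-specific insulin gene, fell from 2815, 2887 and 2932 CPM to 1983, 2091 and 2046 CPM (log2 fold change -0.50, SE 0.08, edgeR FDR = 0.0152). FDR is the Benjamini-Hochberg adjusted p of edgeR's quasi-likelihood test over the 12747 genes that passed its filter on low counts. Ttr FPKM was 26.6 to 40.7% of Ins1 FPKM in controls and 66.7 to 76.3% after epinephrine. Ins2, the main insulin gene of this line, differed by a log2 of 0.01 (SE 0.15, edgeR FDR = 0.974), and its FPKM was 313 to 394 times that of Gcg in controls and 178 to 187 times after epinephrine.

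The 3 genes did not keep one proportion to each other. Ttr FPKM was 4.17, 4.74 and 5.50 times that of Gcg in controls 1, 2 and 3 and 3.74, 3.44 and 3.73 times after epinephrine, so this ratio was lower in every epinephrine sample than in any control. Ttr to Gc was steadier, at 47.4, 43.4 and 40.2 in controls and 40.3, 38.2 and 41.6 after epinephrine. Gcg to Gc was 11.4, 9.14 and 7.31 in controls and 10.8, 11.1 and 11.2 after epinephrine. Within controls, Ttr and Gc thus varied together more closely than either varied with Gcg.

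Control 1 stood apart from controls 2 and 3. Across genes its log2 CPM correlated with theirs at 0.978 to 0.979, against 0.993 between controls 2 and 3 and 0.992 to 0.993 between epinephrine samples. It was lower than the mean of controls 2 and 3 by 0.21 for Gcg, 0.51 for Ttr, 0.69 for Gc and 1.37 for Sst on the log2 scale, and Irx2 was higher in it by 0.59, while the median absolute difference over all genes tested was 0.29. Without control 1 the log2 fold changes were 0.96 for Gcg, 0.46 for Ttr, 0.51 for Gc, 0.53 for Irx2 and -0.11 for Sst. The differences of Gcg, Ttr and Gc were thus present without it, and that of Sst changed sign.

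Hepatocyte markers differed between the samples, and Ttr and Gc are both hepatocyte genes as well. The summed level of 20 such markers was 22.2, 95.8 and 230 CPM in controls 1, 2 and 3, and 19.2, 20.7 and 18.8 CPM after epinephrine. Ttr and Gc had this order in the controls, as did Gcg, Sst and the sum of the β-cell markers. Alb, the serum albumin gene, was at 0.194, 33.9 and 82.3 CPM in controls and 0.297, 0.448 and 0.331 CPM after epinephrine, and none of the 20 markers was at 0 in every sample. The second gene of the list by FPKM was Ambp, a plasma protein precursor, at 9.13, 6.97 and 11.1 CPM in controls and 5.46, 5.72 and 4.83 CPM after epinephrine. The marker sum was therefore lowest in the group in which Ttr and Gc were highest. Without control 3, which had the highest sum, the log2 fold changes were 0.79 for Ttr, 0.96 for Gc and 1.09 for Gcg. The part of hepatocyte RNA in the control levels of Ttr and Gc was not tested.

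**Figure D2:**
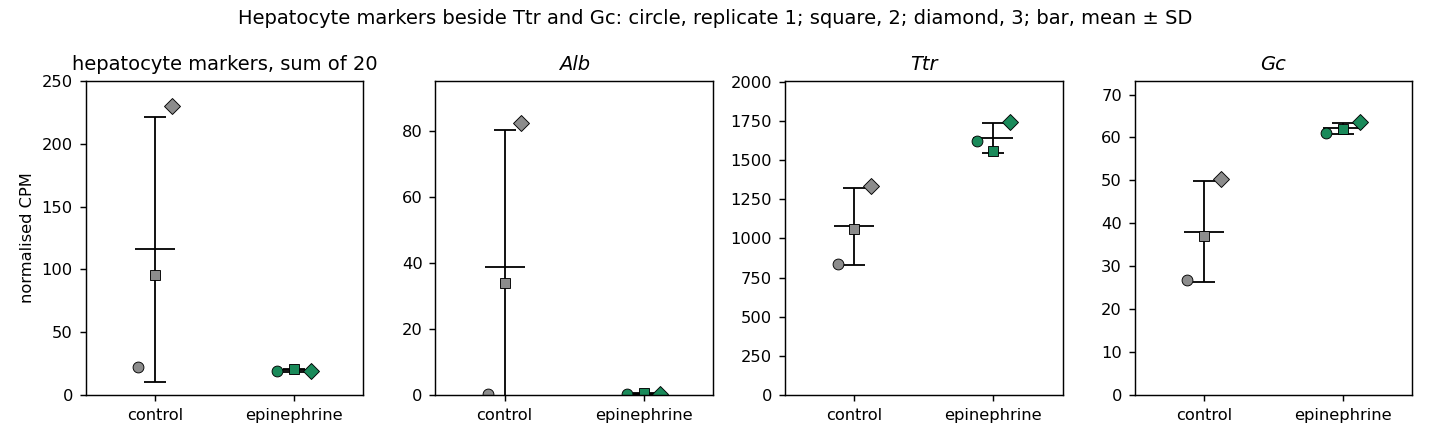
Normalised CPM (linear axes from 0) of the sum of 20 hepatocyte markers, of Alb, and of Ttr and Gc in control (grey) and chronic epinephrine (green) samples, with the mean ± SD of 3 samples. In controls the marker sum, Ttr and Gc are lowest in replicate 1 and highest in replicate 3, whereas after epinephrine the marker sum is 18.8 to 20.7 CPM and Ttr and Gc are at their highest.

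Markers of other cells were low beside those of β-cells. The sum of 12 β-cell markers was 43600 to 63200 CPM in controls and 56000 to 58200 CPM after epinephrine, so all samples had the defining markers of the labelled line. Of these 12, all tested, 3 fell and none rose by edgeR (FDR under 0.05), where 2.63% of all genes tested were called and 0.612% were called lower, and the list was chosen with results of these samples known. The 3 were Ins1, the glucose transporter gene Slc2a2 (log2 fold change -0.76, SE 0.09, FDR = 0.00434) and the urocortin gene Ucn3 (-0.74, SE 0.10, FDR = 0.00868). The sum of 20 exocrine markers was 2.72 to 4.0 CPM in controls and 12.4 to 14 CPM after epinephrine, while 9 of the 20, among them Prss1, Cpa1 and Pnlip, were at 0 in every sample. The 10 fibroblast markers summed to 1.94 to 24.9 CPM in controls and 2.25 to 20.8 CPM after epinephrine, with the collagen genes Col1a1 and Col1a2 the highest by FPKM. The 10 leukocyte markers summed to 47.1 to 69.9 CPM and 72.6 to 77.8 CPM, most of it the complement gene C1qa at 44.3 to 67.8 CPM and 71.6 to 76.6 CPM, with the receptor gene Csf1r at no more than 1.88 CPM. The part of these cells in the levels of the 8 genes was not tested.

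Beyond the 8 genes, 10 lists of related genes held 115 genes, of which 59 were tested and 33 had at most 3 counts in every sample. Of the 59, 3 rose and 2 fell by edgeR's quasi-likelihood test at an FDR under 0.05, which is 8.47% of those tested. Over all 12747 genes, 335 passed, or 2.63%, with 2.02% higher and 0.612% lower. The 59 had a median log2 fold change of -0.10, beside -0.0023 for all genes. An unadjusted p under 0.05 was reached by 23 of the 59 (39.0%) and by 17.1% of all genes. Other analyses named below called other shares of all genes they tested, namely 5.09% for DESeq2, 1.15% and 1.1% for limma on FPKM plus 1 and plus 0.1, and for edgeR 2.69% with at least 10 counts in every sample, 1.48% without control 3 and 21.6% without control 1. Of the listed genes tested without control 1, 22 of 61 were called (36.1%). The lists were chosen with results of these samples known, so none of their shares is independent evidence, and nothing particular to a list is read from its calls.

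**Figure D3:**
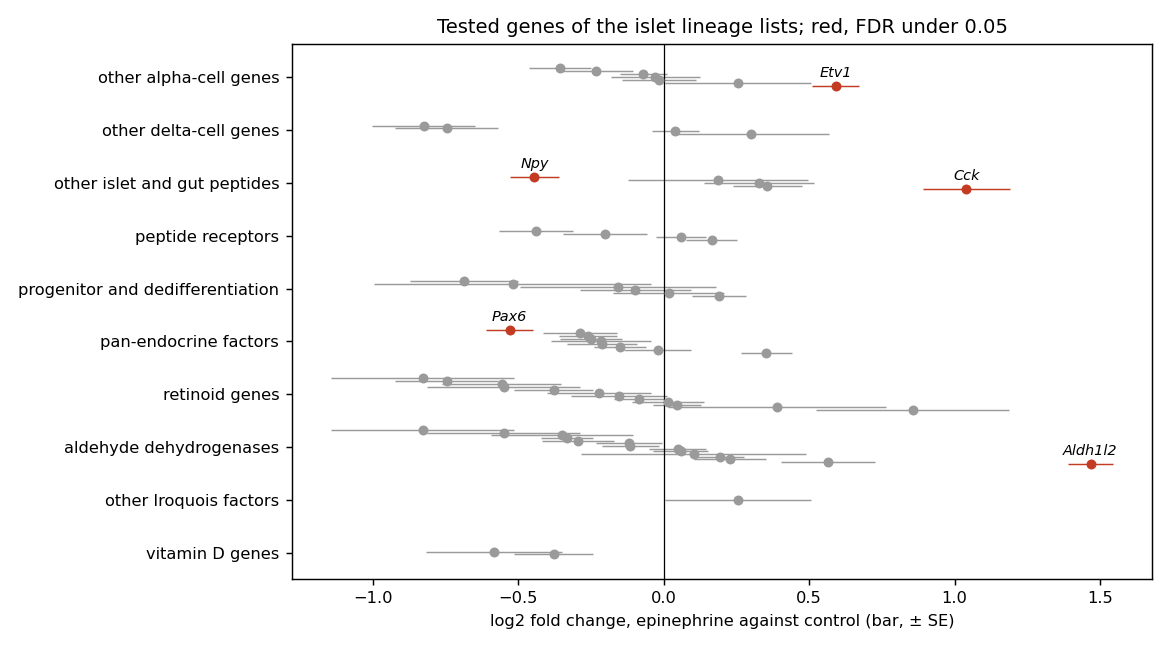
Log2 fold change ± SE (horizontal axis) of each tested gene in the 10 lists (vertical axis), with genes at an FDR under 0.05 in red; a gene on more than 1 list is drawn on each. Aldh1l2, Cck and Etv1 lie to the right, Npy and Pax6 to the left, and most other genes lie within 0.5 of 0.

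The list of other α-cell genes held 12 genes, of which 7 were tested, and by edgeR 1 rose and none fell, with a median log2 fold change of -0.03. The gene that rose was Etv1, an ETS transcription factor gene, from 177, 163 and 163 CPM to 246, 257 and 255 CPM (log2 fold change 0.59, SE 0.08, FDR = 0.00853). DESeq2 also called Slc7a2, an amino acid transporter gene, lower (log2 fold change -0.36, FDR = 0.0482), which edgeR did not (FDR = 0.139) except without control 1 (-0.26, FDR = 0.000813). In that fit, which called 21.6% of all genes, edgeR also called Smarca1 (-0.36, FDR = 0.00045) and Dpp4 (-0.15, FDR = 0.034) lower and Slc38a5 (0.17, FDR = 0.026) higher. Levels differed widely within the list. Slc7a2 was at 523 to 779 CPM over the 6 samples, the transporter gene Slc38a5 at 212 to 324 CPM, the peptidase gene Dpp4 at 185 to 262 CPM and the membrane protein gene Tm4sf4 at 83.3 to 94.0 CPM. Pou3f4, an α-cell homeobox factor gene, had 4, 4 and 6 counts in controls and 7, 5 and 2 counts after epinephrine. Smarca1 and these 5 genes are named after their values were seen.

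Among pan-endocrine factors, the transcription factors and regulators common to islet cells, 9 of 10 genes were tested, and by edgeR 1 fell and none rose, with a median log2 fold change of -0.21. Pax6, a paired-box factor needed for the expression of glucagon and insulin genes, fell from 1106, 1208 and 1114 CPM to 777, 819 and 779 CPM (log2 fold change -0.53, SE 0.08, FDR = 0.0136). Gcg and Pax6 therefore differed in opposite directions between the groups. Pax6 was called in 2 of the 6 fits that left out a sample, those without control 1 or without control 3. DESeq2 also called St18, a zinc finger factor gene, higher (log2 fold change 0.35, FDR = 0.0168), which edgeR did not (FDR = 0.0838) except without control 1 (FDR = 0.000478). In that fit, with 21.6% of all genes called, edgeR also called Isl1 (log2 fold change -0.34, FDR = 1.1e-05) and Rfx6 (-0.33, FDR = 0.00024) lower, both islet transcription factor genes.

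Among other islet and gut peptides, 5 of 14 genes were tested, and by edgeR 1 rose and 1 fell. Cck, the cholecystokinin gene, rose from 890, 1116 and 1367 CPM to 2212, 2227 and 2501 CPM (log2 fold change 1.04, SE 0.15, FDR = 0.0107). Npy, the neuropeptide Y gene and a relative of Ppy and Pyy, fell from 2510, 2251 and 2377 CPM to 1683, 1787 and 1777 CPM (log2 fold change -0.44, SE 0.08, FDR = 0.0333). Of the 3 relatives, only Npy was thus expressed at a level that could be measured well. Nts, the neurotensin gene, named after its values were seen, had 0, 3 and 0 counts in controls and 13, 14 and 9 counts after epinephrine, and did not pass edgeR's filter on low counts. With no filter on low counts, edgeR did not call Nts. It was called higher by DESeq2 (FDR = 0.0334), by limma on FPKM plus 1 (FDR = 0.0214) or plus 0.1 (FDR = 0.0389) and by edgeR without control 1 (FDR = 0.00989). That fit also called Sct, the secretin gene, higher (log2 fold change 0.26, FDR = 0.037).

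Among the other δ-cell genes, 4 of 6 were tested and none was called by edgeR, with 2 at an unadjusted p under 0.05 (17.1% of all genes), and DESeq2 called 2, Ffar4 and Rbp4, both lower. Rbp4, which encodes the retinol-binding protein that travels with transthyretin, was at 6.54, 6.92 and 9.57 CPM in controls and 4.80, 4.48 and 4.43 CPM after epinephrine (log2 fold change -0.75, SE 0.18, edgeR FDR = 0.0749). Its values were lower in all epinephrine samples, opposite to those of Ttr. Rbp4 is a hepatocyte gene too and its controls had the order of the hepatocyte marker sum, whose part in this difference was not tested. Without control 1, edgeR called both Rbp4 (FDR = 0.000478) and Ffar4 (FDR = 0.00537), and with at least 10 counts in every sample it called Ffar4 (FDR = 0.0439). Hhex, the δ-cell homeobox factor, had 1 count or none in each sample.

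Among receptors of these peptides, 4 of 13 genes were tested and none was called by edgeR, with 1 at an unadjusted p under 0.05 and 1, Glp1r, called by DESeq2. Glp1r, the receptor of the proglucagon product GLP-1, was at 858, 653 and 613 CPM in controls and 514, 528 and 525 CPM after epinephrine (log2 fold change -0.44, SE 0.13, edgeR FDR = 0.126). Without control 1 the log2 fold change of Glp1r was -0.28, and edgeR called it (FDR = 9.2e-05). The GIP receptor gene Gipr differed by 0.16 on the log2 scale (SE 0.09, FDR = 0.381). A further 7 of the 13 receptors had at most 3 counts in every sample.

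Genes of progenitors and of dedifferentiation other than Aldh1a3 were mixed in level. Of 14 such genes, 6 were tested and 7 had at most 3 counts in every sample, and none was called by edgeR, DESeq2 or limma, with 1 at an unadjusted p under 0.05. Neurog3, the endocrine progenitor factor, had no counts in any sample. The members of highest FPKM were Cd81, a surface protein gene, at 0.19 on the log2 fold scale (SE 0.09, FDR = 0.345), and Gata4, an endodermal factor gene, at -0.10 (SE 0.19, FDR = 0.836).

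The aldehyde dehydrogenase family, to which Aldh1a3 belongs, had 14 of 18 other members tested, of which 1 rose and none fell by edgeR. DESeq2 also called Aldh6a1 lower (FDR = 0.0380) and Aldh18a1 higher (FDR = 0.0403). Without control 1, edgeR called both in the same directions (FDR = 0.0012 and 1.8e-10), with Aldh5a1 higher (FDR = 0.0055) and Aldh1a7 lower (FDR = 0.021), beside 21.6% of all genes. Aldh1l2, a mitochondrial enzyme of folate metabolism, rose from 60.5, 56.8 and 58.7 CPM to 162, 166 and 159 CPM (log2 fold change 1.47, SE 0.08, FDR = 0.000221). It was called in all 13 alternative analyses, including each of the 6 that left out a sample. Retinoid genes, which make, carry or bind vitamin A derivatives, had 12 of 21 tested with none called by edgeR, 5 at an unadjusted p under 0.05 (17.1% of all genes) and 1, Rbp4, called by DESeq2. Without control 1, edgeR called Rbp4, Rxra and Aldh1a7, all lower, where 21.6% of all genes were called. The retinoid genes of highest FPKM were Rdh11, a retinol dehydrogenase gene (log2 fold change 0.05, SE 0.08, FDR = 0.822), and Rxra, a nuclear receptor gene (-0.38, SE 0.14, FDR = 0.203).

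The other Iroquois factors were low as well. Only Irx1 of 5 was tested, at 3.76, 1.94 and 2.94 CPM in controls and 3.03, 3.47 and 3.77 CPM after epinephrine (log2 fold change 0.26, SE 0.25, FDR = 0.650), and Irx5 was at no more than 0.661 CPM. Among vitamin D genes, 2 of 8 were tested and none was called by edgeR, DESeq2 or limma, and both had an unadjusted p under 0.05, as had 17.1% of all genes. These were Rxra and Vdr, the vitamin D receptor gene (log2 fold change -0.58, SE 0.23, FDR = 0.252). Without control 1, edgeR called Rxra at a smaller log2 fold change of -0.20 (FDR = 0.0145).

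The other calls among the 10 lists of related genes were less steady than that of Aldh1l2. Etv1 was called in 9 of 13 alternative analyses (FDR up to 0.0839), Pax6 in 8 (up to 0.146), Cck in 7 (up to 0.0963) and Npy in 5 (up to 0.394). Etv1 and Cck kept their calls without control 1 or control 3 and lost them without control 2 or any epinephrine sample. Of the 6 fits with a sample left out, Npy was called in 1, that without control 1.

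The genes most like each of the 5 measurable genes over the 6 samples were found by Pearson's r of log2 CPM among genes of at least 10 CPM on average. Among them were Yipf2 (0.998), Ell2 (0.996) and Erp44 (0.996) for Gcg, Mtarc2 (0.999) and Mdm1 (0.998) for Ttr, and Eif5a (0.997) and Nrbp1 (0.997) for Gc. For the low genes they were Cdh24 (0.973), Stk4 (0.961) and Abitram (0.957) for Irx2 and Trnau1ap, Chchd3 and Eed (0.997 each) for Sst. The 6 points are 2 groups of 3 with control 1 apart, and 250 of 9588 genes had an r over 0.95 with Gcg, 227 with Ttr and 249 with Gc. The corresponding numbers of 9589 genes were 428 for Sst and 4 for Irx2.

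**Figure D4:**
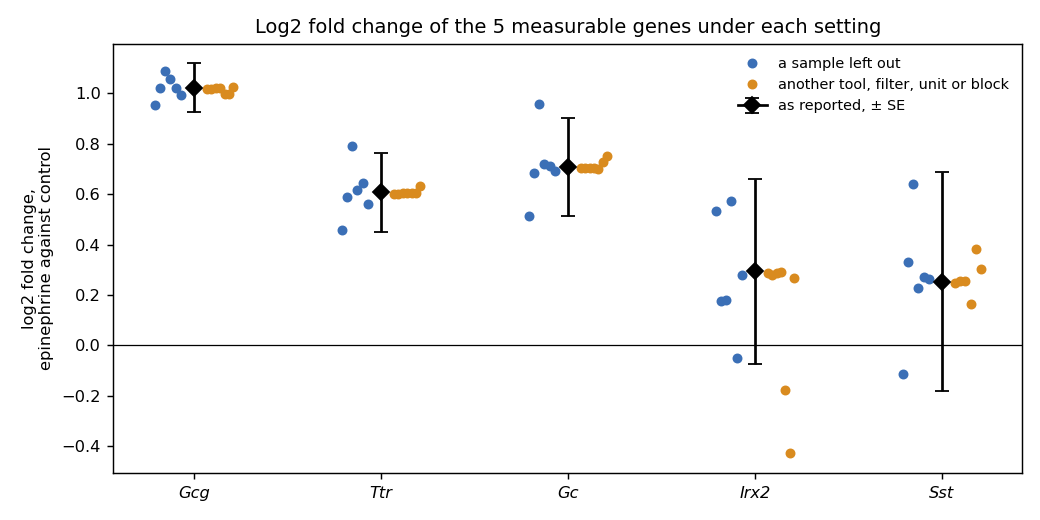
Log2 fold change of the 5 genes that passed the filter on low counts (vertical axis), as reported with its SE (black), with 1 sample left out (blue) and with another tool, filter, unit or block (orange). Gcg stays within 0.96 to 1.09, Ttr within 0.46 to 0.79 and Gc within 0.51 to 0.96, whereas Irx2 and Sst fall on both sides of 0.

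Gcg, Ttr and Gc were higher after epinephrine in each of the 13 alternatives. Irx2 ranged from -0.43 to 0.57 and Sst from -0.11 to 0.64, and neither had a settled direction. In the gene annotation that came with the table, 6 of the 8 (Gc, Gcg, Ppy, Pyy, Sst and Ttr) carried the term extracellular region, which 1735 genes of the table have. Gcg, Ppy, Pyy and Sst were assigned to neuroactive ligand-receptor interaction, with 375 genes, and Aldh1a3 and Ttr to the retinol metabolic process, with 37.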

How the data were processed

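RNA from 3 control and 3 chronic epinephrine samples was sequenced on an Illumina Novaseq. The authors' deposited table holds 22298 genes and gives each an expected count and FPKM per sample. The submitters' processing notes name GRCm38, and the aligner and counter are not given in the sources used here. Totals were 15017065 to 18127171 expected counts, so 3 counts equal 0.165 to 0.200 CPM. Of the deposited expected counts, 8.34% were not whole, and all were rounded. Genes kept by filterByExpr (12747) were TMM-normalised and compared with edgeR 4.0.16 (quasi-likelihood, R 4.3.3), using Benjamini-Hochberg FDR and SE taken as the log2 fold change divided by the square root of F. The script was tested on simulated data. The 8 genes and the lists, written from general knowledge, were chosen with earlier results of these data known. Named are all 8 genes, the called genes of each list (up to 4 per direction), or its 2 of highest FPKM where none was called, and the 3 nearest genes by Pearson's r of log2 CPM (prior count 2). Alternatives were DESeq2 1.42.0 (size factors or Wald test), other filters, limma 3.58.1 on log2 of FPKM plus 1 or 0.1, the replicate number as a block, and each sample left out. Values of some genes that this rule names are not reported here.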

Additional observations from a re-analysis of the deposited data

How the results depend on the processing

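Gcg, Ttr and Gc were higher after epinephrine in each of the 13 alternatives, in the ranges given above. Irx2 changed sign on FPKM (-0.18 with 1 added, -0.43 with 0.1 added) and without epinephrine sample 2 (-0.05), and Sst without control 1 (-0.11). Sst has no value where every sample must hold 10 counts. The 335 genes called became 729 with the Wald test of DESeq2, 200 and 191 with limma on FPKM plus 1 and plus 0.1, and 47 to 2798 with a sample left out, the highest without control 1. They were 327 with DESeq2 size factors, 352 without a filter and 331 with at least 10 counts in every sample. The 5 listed genes called became 13 with the Wald test, 4 with either limma setting, 6 with at least 10 counts in every sample and 1 to 22 with a sample left out, again highest without control 1. With the replicate number as a block, 178 genes and 3 listed genes were called. Nothing says that the numbers pair the samples, and the deviations of same-numbered samples correlated at 0.0502, 0.0677 and -0.0488, and not every number was best matched by its own. Why these counts moved was not tested. Depth limits Irx2, Sst, Ppy, Pyy and Aldh1a3, at 39 counts or fewer in every sample, and 3 samples against 3 allow no exact permutation p under 0.1.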
